A study of Mus musculus with 18 samples.

Results

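H3K9me2 was compared between G9a knockout (KO) and Cre control cardiomyocytes over all regions of the authors' deposited H3K9me2 list that lie on chromosomes 1 to 19. These are 711506 of the 716658 regions in that list and of the 2377384 regions in the 4 lists of the series, chosen by chromosome alone. The series holds 18 chromatin immunoprecipitation sequencing (ChIP-seq) libraries of cardiomyocytes, and 4 of them enter here, 2 for KO and 2 for Cre, all made with the Abcam antibody ab1220. KO mice were G9a flox/flox; alphaMHC-MerCreMer +/-, and Cre mice were alphaMHC-MerCreMer +/- with no floxed allele in the label; both were C57BL/6J per the labels. The transgene that both groups carry is a tamoxifen-dependent Cre recombinase under the promoter of Myh6, a gene of heart muscle cells, so other cells of the heart would keep G9a. The labels give neither the treatment schedule nor the age of the mice. The cells were enriched rather than pure, and fewer methylated cells cannot be told apart from less of the mark in each cell. Nothing in the labels ties a library to an animal, so the p-values below speak for these libraries only. Apart from an exact permutation test, they come from limma. It estimates the spread of each region or gene partly from all the others. For windows the spread came almost wholly from the other windows, so their p-values hardly measure the spread between the 4 libraries.

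H3K9me2 is the dimethylated form of lysine 9 of histone H3. It is written mainly by G9a, the product of Ehmt2, which works as a pair with GLP, the product of Ehmt1. The mark covers long stretches of silent, gene-poor chromatin, much of it at the nuclear lamina, and it also lies over silent genes of other tissues.

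Each listed region has 4 values, and signal per kb is the value divided by the listed length. The gene starts below were chosen among gene starts inside a listed region of 1 kb or more. They had the widest gap there between the KO and Cre values in their promoter class and direction. Each line gives a promoter on GRCm38.p6 from RefSeq, from 250 bases before to 50 after the gene start, 5′ to 3′, with every CG dinucleotide in capitals. Fut8, a fucosyltransferase gene (chr12:77238489-77238788, plus strand), and Pclo, the gene of a presynaptic scaffold (chr5:14514668-14514967, plus strand), have CpG-rich starts. Apol10a, of the apolipoprotein L family (chr15:77476797-77477096, plus strand), and Dcpp1 (chr17:23880626-23880925, plus strand) have CpG-poor starts.
Fut8: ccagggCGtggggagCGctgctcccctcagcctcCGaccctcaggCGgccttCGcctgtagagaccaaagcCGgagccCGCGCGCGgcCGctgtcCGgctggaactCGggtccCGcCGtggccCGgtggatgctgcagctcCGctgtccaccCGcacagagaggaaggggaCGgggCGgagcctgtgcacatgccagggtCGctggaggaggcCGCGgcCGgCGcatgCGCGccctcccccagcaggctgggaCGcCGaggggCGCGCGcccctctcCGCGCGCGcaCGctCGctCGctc
Pclo: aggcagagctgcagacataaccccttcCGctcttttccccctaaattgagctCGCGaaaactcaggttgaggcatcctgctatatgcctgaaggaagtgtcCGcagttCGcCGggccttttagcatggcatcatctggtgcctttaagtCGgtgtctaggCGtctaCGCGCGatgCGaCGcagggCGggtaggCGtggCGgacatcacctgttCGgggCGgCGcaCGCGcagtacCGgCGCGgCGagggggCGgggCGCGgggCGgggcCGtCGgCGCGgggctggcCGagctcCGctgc
Apol10a: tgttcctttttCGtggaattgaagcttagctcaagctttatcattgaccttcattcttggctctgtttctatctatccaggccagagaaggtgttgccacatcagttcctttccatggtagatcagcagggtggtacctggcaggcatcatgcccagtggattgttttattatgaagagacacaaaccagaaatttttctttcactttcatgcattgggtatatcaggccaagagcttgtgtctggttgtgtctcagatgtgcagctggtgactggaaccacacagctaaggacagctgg
Dcpp1: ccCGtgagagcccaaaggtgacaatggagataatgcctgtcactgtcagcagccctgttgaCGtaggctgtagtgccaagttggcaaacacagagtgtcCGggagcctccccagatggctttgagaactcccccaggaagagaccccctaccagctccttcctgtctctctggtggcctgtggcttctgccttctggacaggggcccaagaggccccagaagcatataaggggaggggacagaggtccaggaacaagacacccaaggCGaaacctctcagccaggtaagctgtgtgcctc
The letters CG, which read the same on both strands, were found in 95.05% of 16456 promoters of that length, with a median of 14 per promoter. They numbered 39 at Fut8, 35 at Pclo, 1 at Apol10a and 4 at Dcpp1.

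In the authors' deposited list the region over the Fut8 start (chr12:77238701-77239900) had values of 228 and 352 in KO and 29 and 19 in Cre, and the region over the Pclo start (chr5:14514251-14515750) had 117 and 81 in KO and 340 and 425 in Cre. The Apol10a region of that list (chr15:77476851-77477850) had 181 and 305 in KO and 24 and 30 in Cre, and the Dcpp1 region (chr17:23880051-23881200) had 58 and 41 in KO and 280 and 262 in Cre. The 4 starts were picked by direction within each class, so they do not show how common either direction was there. Log2 ratios of KO over Cre, from group means with 1 added, were 3.54 at Fut8, -1.94 at Pclo, 3.12 at Apol10a and -2.43 at Dcpp1. None passed limma over all regions (adjusted p 0.40 each). Gene starts seldom lay in a listed region: 467 of 5147 CpG-rich starts (9.07%), 587 of 4304 intermediate starts (13.6%) and 1765 of 7005 CpG-poor starts (25.2%). CpG-rich starts had an observed to expected CG ratio of at least 0.75 and at least 55% G and C, and CpG-poor starts a ratio under 0.48. Of the covered starts, 69.0% of the CpG-rich, 64.7% of the intermediate and 58.9% of the CpG-poor were higher in KO.

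Over the targeted gene itself, Ehmt2 (gene ID 110147, chromosome 17, 34898463 to 34914073), the listed H3K9me2 values summed to 643 and 435 in KO and to 834 and 328 in Cre over 3.3 kb. The groups overlapped, with a log2 ratio of -0.11 (limma standard error 0.37, adjusted p 0.98). G9a signal over Ehmt2 in the G9a list was 410 and 483 in KO and 743 and 791 in Cre over 3.8 kb, a log2 ratio of -0.78 with KO below Cre. The labels do not say which exons were floxed, so neither value checks the deletion. At Ehmt1 the H3K9me2 values were 2964 and 3426 in KO and 3266 and 2486 in Cre, again overlapping (log2 ratio 0.15).

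H3K9me2 was higher in KO at 429333 of the 711506 regions (60.3%) and lower at 282173 (39.7%). Both KO values lay above both Cre values at 40.9% of regions and below both at 24.8%. The median log2 ratio was 1.03 over the higher regions and -0.91 over the lower regions, and the ratios nearest to 0 were 0.198 and -0.166. The labels name the list as one of differential peaks, and every region in it differs in its means, so neither the directions nor the size of the ratios were tested. The regions had a median length of 650 bp (350 to 17000) and covered 527 Mb, of which 36.1% of regions touched a protein-coding gene. No region had a mean under 105 per kb, and the median was 140 per kb.

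The listed values summed to 82960426 and 88271081 in the KO libraries and to 75435799 and 67186329 in the Cre libraries, and these sums are not read depths. The values of the KO pair correlated at r = 0.489 on the log2 scale across the 711506 regions and those of the Cre pair at 0.288, a description over regions that share their libraries. Values of 0 numbered 2197 and 1746 in KO and 6781 and 11810 in Cre. When the libraries were scaled to the same median of listed values, 60.3% of regions were still higher in KO, but 29.8% lay wholly above and 31.2% wholly below Cre. That scaling shifted the median log2 ratio by -0.29 for regions, for 1 Mb windows and for genes. Calls below are as deposited unless scaling is named, and their balance can change after scaling.

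By limma, 0 of the listed regions passed an adjusted p of 0.05, as deposited, under either scaling and with any of the 4 libraries left out. At an unadjusted p under 0.05 there were 58530 higher and 20574 lower regions, but 29011 higher and 50004 lower after scaling to the same median and 31402 higher and 46342 lower after scaling to the same total. Without the first KO value the unadjusted counts were 10775 and 19306, without the second KO value 8186 and 22428, without the first Cre value 161004 and 20327, and without the second Cre value 120574 and 27341.

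**Figure D1:**
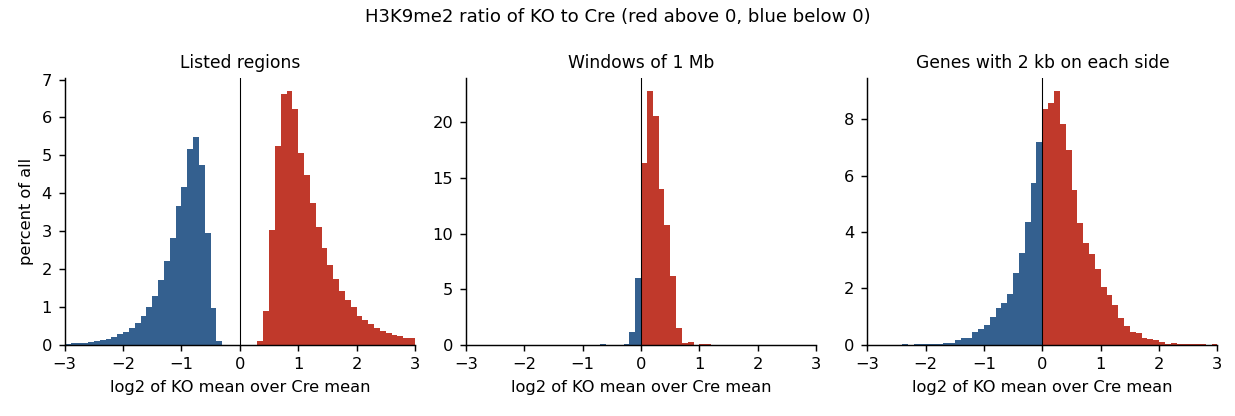
Distribution of the log2 ratio of mean KO over mean Cre values (x axis) as percent of all 711506 listed regions, 2408 windows of 1 Mb and 16661 genes (y axis, bins of 0.1). Regions form 2 separate groups at medians of 1.03 and -0.91, while windows and genes, which sum many regions, centre on 0.22.

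The share of regions higher in KO was largest far from genes. It was 58.1% inside protein-coding genes, 59.7% within 10 kb, 59.5% between 10 and 100 kb, 61.8% between 100 and 500 kb and 67.6% at 500 kb or more. In the 73048 regions of the farthest class the signal per kb was 174 and 180 in KO and 139 and 119 in Cre. In the 257133 regions inside genes it was 147.9 and 163 in KO and 143 and 128 in Cre. By this signal, summed over each class, KO libraries were highest far from genes, while Cre libraries were lowest there. As a mean of log2 signal per kb the first Cre value was not lowest there (6.78, beside 6.77 inside genes). The ratio of KO to Cre was 1.37 at 500 kb or more and 1.15 inside genes as deposited, and 1.12 against 0.935 after scaling to the same median, so that the side of 1 inside genes depended on the scaling while the difference between the classes did not. Far regions had the larger share of higher regions on all 19 chromosomes, by 5.74 percentage points on chromosome 7 to 12.3 on chromosome 14. The difference was also present within each of 5 classes of signal per kb (75.9% against 67.4% in the lowest and 59.1% against 45.2% in the highest) and within each class of length.

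By gene density the ratio was highest in regions without genes nearby. These 73101 regions are nearly the same as the 73048 at 500 kb or more from genes, so this is not a separate result. Regions with 0 protein-coding genes within 500 kb had 174 and 180 per kb in KO and 139 and 119 in Cre, a ratio of 1.37. With 5 to 9 genes the signal was 151 and 163 per kb in KO and 146 and 131 in Cre, a ratio of 1.13, and with 40 genes or more 153 and 167 in KO and 138 and 130 in Cre, a ratio of 1.19. The ratio therefore did not fall steadily with the number of genes.

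Longer regions were more often higher in KO, apart from a dip at middle lengths: 61.4% under 500 bp, 58.2% between 750 and 1000 bp, 67.9% between 1.5 and 3 kb and 87.4% of the 681 regions of 3 kb or more. The longest class had 314 and 334 per kb in KO and 193 and 181 per kb in Cre, a ratio of 1.73 as deposited and 1.41 after scaling. Weak regions went the same way. In the lowest of these 5 classes 69.2% were higher in KO, with 138 and 151 per kb in KO and 103 and 89.7 per kb in Cre. In the highest class 50.4% were higher, with 185 and 192 per kb in KO and 186 and 169 per kb in Cre, so that the libraries overlapped. The longest class had more signal per kb than the shortest in all 4 libraries, at 141 and 152 per kb in KO and 126 and 111 per kb in Cre for the shortest.

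For each axis the mean log2 signal per kb of the first class was subtracted from that of the last within each library. Over distance this difference was 0.28 and 0.16 in KO and 0.01 and -0.08 in Cre. Over gene density it was -0.24 and -0.12 in KO and -0.08 and 0.11 in Cre. Over length it was 1.09 and 1.00 in KO and 0.65 and 0.77 in Cre, and over signal 0.50 and 0.42 in KO and 1.21 and 1.33 in Cre. The groups lay apart on all 4 axes, by 0.25, -0.19, 0.33 and -0.81. Distance and density are not independent axes, since their classes without genes nearby hold nearly the same regions. The exact two-sided permutation test gives p = 0.3333 on each axis, the smallest value that 2 libraries against 2 can give. Whether length and signal reflect how regions were called was not tested.

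**Figure D2:**
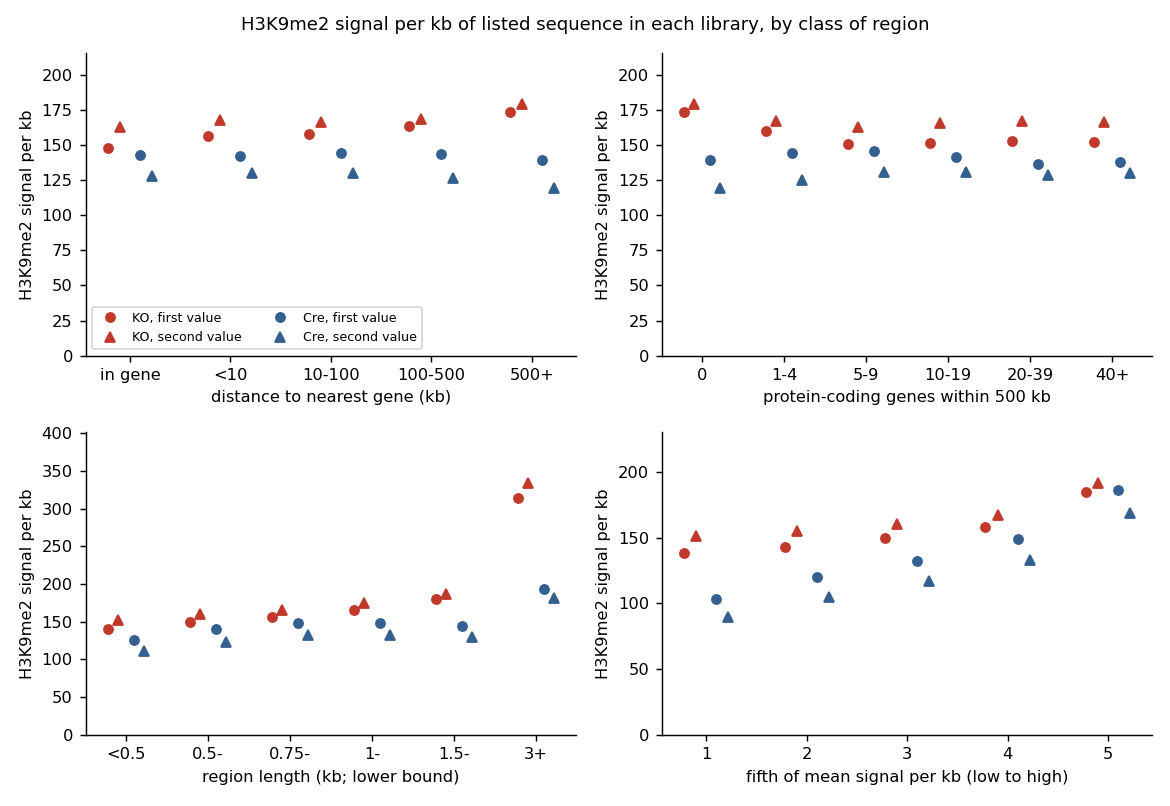
Signal per kb of listed sequence (y axis, from 0) in the 2 KO libraries (red) and the 2 Cre libraries (blue) by class of distance to genes, gene density, region length and mean signal per kb (x axes). KO lies above Cre at 500 kb or more from genes (174 and 180 against 139 and 119) and in regions of 3 kb or more (314 and 334 against 193 and 181), and the groups overlap in the highest class of signal.

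The median gap between neighbouring regions was 1550 bp, and 50.9% of all neighbouring pairs had the same direction, beside 52.1% if the direction of a region did not depend on its neighbour's. Pairs less than 200 bp apart had the same direction in 33.4% of cases, and pairs farther apart in 52.5% to 54.1%. Whether the low share of the closest pairs reflects how regions were called was not tested. Among chromosomes the share higher in KO ran from 56.0% on chromosome 9 to 64.2% on chromosome 5.

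Listed values were summed over windows of 1 Mb. Of 2408 windows with at least 10 kb of listed sequence, 650 (27%) rose and 1 (0.0415%) fell by limma at an adjusted p of 0.05, and in 63.2% both KO values lay above both Cre values. The median log2 ratio was 0.22. The balance of the calls rested on the scale of the libraries: after scaling to the same median 339 windows were called higher and 600 lower, with 23.96% wholly above and 47.2% wholly below Cre, and after scaling to the same total 419 and 463. The higher count was 47 without the first KO value, 10 without the second KO value, 1027 without the first Cre value and 613 without the second Cre value. The windows sum regions listed for differing, so their p-values are not those of unselected sequence. The standard error of a window came almost wholly from the other windows.

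Windows without genes stood highest. Of 210 windows with 0 protein-coding genes 164 rose (78.1%), with a median log2 ratio of 0.45 and median signals per kb of 172 and 179 in KO and 139 and 119 in Cre. Of 487 windows with 1 to 2 genes 219 rose (45.0%, median 0.30), of 632 with 6 to 11 genes 78 rose (12.3%, median 0.16), and of 170 with 25 genes or more 35 rose (20.6%, median 0.22). After scaling to the same median the gene-free windows had a median of 0.16, with 74.8% wholly above Cre, while those with 6 to 11 genes had a median of -0.13, with 63.3% wholly below Cre. Gene-free windows thus kept a positive median under this scaling, and windows with 3 genes or more had a negative one. In the other 3 lists the gene-free windows had median log2 ratios of -0.28 for G9a, -0.46 for H3K27me3 and -0.35 for Mef2c, beside -0.29, -0.34 and -0.31 over all windows.

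**Figure D3:**
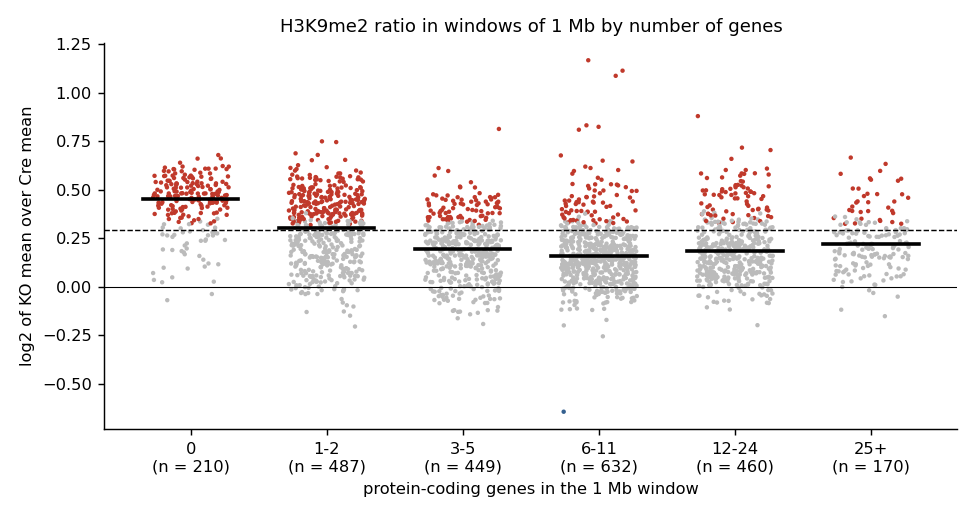
Log2 ratio of mean KO over mean Cre values (y axis) of each of 2408 windows of 1 Mb by number of protein-coding genes (x axis), with windows called higher in red, the window called lower in blue and the rest grey; black bars are medians and the dashed line is where 0 lies after scaling libraries to the same median. The median is 0.45 with 0 genes and 0.16 with 6 to 11 genes.

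Windows called higher as deposited often adjoined. The 650 windows formed 253 runs, of which 115 were single windows and 36 held 5 windows or more, with 262 windows in all (40.3%). How many would adjoin given the share called was not tested, and runs were not redrawn after scaling. The 5 longest runs, 4 of which are described here, were chosen after their values were seen. After scaling to the same median their median log2 ratios were 0.16 to 0.30. The longest, chromosome 4 from 15 to 31 Mb, held 16 windows and 36 genes, with 170 and 180 per kb in KO and 137 and 116 per kb in Cre. Chromosome 15 from 14 to 25 Mb held 6 genes, among them the cadherin genes Cdh9, Cdh10, Cdh12 and Cdh18, with 179 and 185 per kb in KO and 134 and 116 per kb in Cre. Chromosome 5 from 78 to 89 Mb held the casein genes Csn1s1, Csn2 and Csn3 of milk and the Ugt2b genes of steroid and drug conjugation, with 182 and 182 per kb in KO and 134 and 112 per kb in Cre. Chromosome 13 from 77 to 89 Mb held Mef2c among 18 genes, with 174 and 177 per kb in KO and 138 and 114 per kb in Cre. Over Mef2c itself, a transcription factor gene of heart muscle, the values were 2173 and 2680 in KO and 2908 and 2145 in Cre. The gene thus had overlapping values (log2 ratio -0.06) inside a run whose median log2 ratio was 0.44.

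Among the 5 windows with the widest gaps upwards, chromosome 17 from 30 to 31 Mb, which holds Btbd9, Glo1 and Dnah8, had 212 and 230 per kb in KO and 99.1 and 105 per kb in Cre (log2 ratio 1.11, standard error 0.13, adjusted p 6.53e-15 by limma). All 4 lists were higher in KO there, with log2 ratios of 0.50 for G9a, 0.36 for H3K27me3 and 0.66 for Mef2c, each with both KO values above both Cre values. Chromosome 4 from 122 to 123 Mb, with Mycl, had 216 and 224 per kb in KO and 127 and 121 per kb in Cre (0.82), and chromosome 3 from 15 to 16 Mb, with the immune receptor genes Sirpb1a, Sirpb1b and Sirpb1c, had 210 and 217 per kb in KO and 125 and 118 per kb in Cre (0.81). In these the G9a values of the groups overlapped. Chromosome 17 from 38 to 39 Mb, with olfactory receptors and Esp34, had 227 and 235 per kb in KO and 135 and 116 per kb in Cre (0.88). Chromosome 7 from 8 to 9 Mb had a log2 ratio of 1.17, over only 24.3 kb of listed sequence.

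The 1 window that fell was chromosome 17 from 13 to 14 Mb, which holds Sod2 and the Smok2 and Tcp10 genes of the t-complex. It had 146 and 157 per kb in KO and 200 and 272 per kb in Cre (log2 ratio -0.64, standard error 0.13, adjusted p 1.27e-04). The other lists were lower there too, with -1.04 for G9a, -0.93 for H3K27me3 and -1.17 for Mef2c. The next windows by gap, on chromosomes 7, 9 and 15, had log2 ratios of -0.25 to -0.12 and did not pass. Ehmt2 lies on chromosome 17 too. Of 30 windows within 15 Mb of it 10 rose (33.3%), against 18 of 62 on the rest of that chromosome (29.0%) and 27% of all windows. The input libraries were not used here, and what makes whole stretches differ in all 4 lists was not tested.

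Over genes, listed values were summed across the gene span with 2 kb on each side, for genes with at least 1 kb of listed sequence. Of 16661 such genes 633 (3.8%) rose and 53 (0.318%) fell by limma at an adjusted p of 0.05. Both KO values lay above both Cre values in 40.1% and below both in 12.9%, and the median log2 ratio was 0.22. After scaling to the same median 208 genes were higher and 679 lower, and after scaling to the same total 243 and 537. Leaving out the first KO value gave 48 higher and 3 lower genes, and leaving out the second gave 13 and 3. Leaving out the first Cre value gave 1846 and 109, and leaving out the second gave 749 and 55.

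Among genes with 3 kb or more of listed sequence, the widest gap upwards was at Zfp960, a zinc finger gene, with 621 and 1001 in KO and 162 and 142 in Cre (log2 ratio 2.41, standard error 0.42). Esp34, a secreted peptide of exocrine glands, had 4094 and 3706 in KO and 1116 and 759 in Cre (2.06, standard error 0.23). Next came Herpud2 of the endoplasmic reticulum, with 1110 and 1199 in KO and 376 and 284 in Cre (1.80). These groups lay far apart. Others that rose were Slf2 of genome maintenance (1.97), Xpa of nucleotide excision repair (1.57), Sec13 of vesicle coats and nuclear pores (1.57), Pcm1 of the centriolar satellites (1.46), Phf12 (1.66), Wdtc1 (1.62), Tent2 (1.67) and Fkbp14 (1.60). Vmn2r116, a pheromone receptor gene, had 759 and 758 in KO and 178 and 259 in Cre (1.79). Nxpe5 had 7032 and 7944 in KO and 2582 and 2747 in Cre (1.49) over 31.2 kb, the most listed sequence among them. Apol10a (1.46) also rose. These genes kept their calls after scaling to the same median.

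The widest gap downwards was at Slc16a3, the lactate exporter MCT4, with 247 and 268 in KO and 726 and 905 in Cre (log2 ratio -1.66, standard error 0.37). Gzmb, granzyme B of cytotoxic lymphocytes, had 349 and 316 in KO and 881 and 814 in Cre (-1.35). Zfp558 had 388 and 456 in KO and 1067 and 989 in Cre (-1.28). Each KO value of these genes lay far below each Cre value. Slc46a1, a folate transporter (-1.35), Tex33 (-1.33), Mcoln1, a lysosomal channel (-1.28), Lrit2 (-1.19), Ints11 of the Integrator complex (-1.18), Kif2c, a mitotic kinesin (-1.16), Smok2b (-1.03) and Mfsd13b (-0.96) also fell. Decr2 (-1.14), Spag11b (-1.08), Slc23a3 (-1.07) and Krt31 (-1.04) had adjusted p values of 0.061 to 0.071 and passed only after scaling. With 1 value left out, its group has a single value that is assumed to vary like the other group. Without the first KO value 7 of the 33 named genes that rose kept an adjusted p under 0.05, without the second KO value 3, without the first Cre value 32 and without the second Cre value 26. Of the 15 named genes that fell, 0 kept it without either KO value, 11 without the first Cre value and 9 without the second Cre value. Zinc finger, Esp, Smok2 and receptor genes have near-identical copies, among which reads may have been split.

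**Figure D4:**
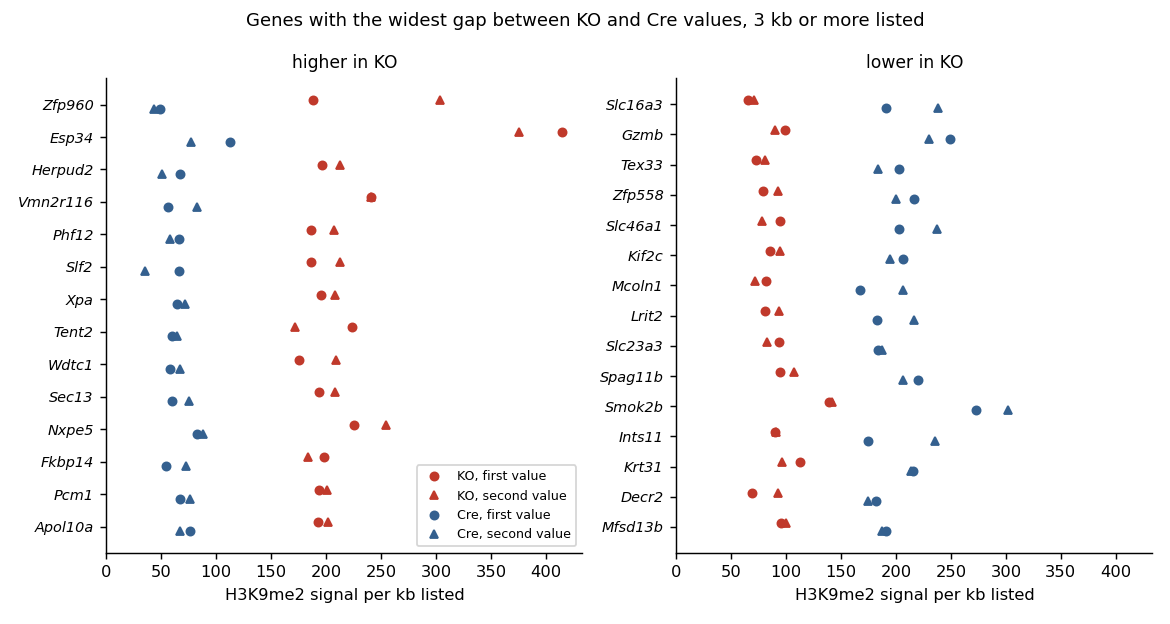
Signal per kb of listed sequence (x axis) in the 2 KO libraries (red) and the 2 Cre libraries (blue) for the named genes of each direction with the widest gap between the groups. The groups lie apart at every gene, as at Herpud2 (196 and 212 per kb in KO, 66.5 and 50.3 in Cre) and Kif2c (85.0 and 94.5 per kb in KO, 206 and 194 in Cre).

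Of 40 synaptic adhesion and long neuronal genes 9 rose (22.5%, beside 3.8% of all genes) and 0 fell. In 30 (75%) both KO values lay above Cre, against 40.1% of all genes. Csmd3 had 50829 and 53096 in KO and 39168 and 33052 in Cre (0.53, adjusted p 0.0071). Cntn6 had 27185 and 26015 in KO and 19324 and 16974 in Cre (0.55), and Grik2, a glutamate receptor gene, 37064 and 37592 in KO and 28669 and 21816 in Cre (0.56). These ratios were small next to those above, over 145.4 to 299 kb of listed sequence. The median of this list was 0.28 and became -0.01 after scaling to the same median, with 11 genes wholly above and 15 wholly below Cre and 5 called higher and 9 lower, so that its direction as a family rests on the scale. By gene length, the 55 genes of 1 Mb or more had a median of 0.27 with 67.3% wholly above Cre, but of -0.02 with 27.3% wholly above and 43.6% wholly below after that scaling. Among these 55, named after their values were seen, Lingo2 had 73748 and 75019 in KO and 55045 and 47181 in Cre (0.54), while Asic2 had 43737 and 43982 in KO and 44840 and 45185 in Cre (-0.04).

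Receptor families of smell kept their positive medians after scaling. Of 229 vomeronasal receptor genes 29 rose (12.7%, against 3.8% of all genes) and 0 fell, 60.7% lay wholly above Cre, and the median was 0.50 as deposited and 0.22 scaled, against 0.22 and -0.07 for all genes. Vmn1r209 had 268 and 415 in KO and 50 and 90 in Cre (2.27), and Vmn2r45 460 and 371 in KO and 75 and 127 in Cre (2.03). Of 784 olfactory receptor genes 24 rose (3.06%) and 4 fell, with 45.3% wholly above and 14.3% wholly below Cre, near the 3.8%, 40.1% and 12.9% of all genes, and a median of 0.43 (scaled 0.14). Olfr784 rose, with 581 and 271 in KO and 68 and 24 in Cre (3.18), as did Olfr1189 (3.04), while Olfr952 fell, with 92 and 103 in KO and 607 and 343 in Cre (-2.27). The olfactory receptors thus held single genes of large change in both directions. The call at Vmn1r209 was lost after scaling (adjusted p 0.060). With libraries scaled to the same median 10 vomeronasal receptor genes were called higher and 0 lower. For olfactory receptor genes 9 were called higher and 11 lower under that scaling.

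Of 53 clustered protocadherin genes, which encode neuronal surface proteins, 2 rose (3.77%, beside 3.8% of all genes) and 0 fell, with 69.8% wholly above Cre, beside 40.1%, and a median of 0.40 (scaled 0.10). Pcdhb11 had 914 and 947 in KO and 458 and 476 in Cre (0.99, adjusted p 0.056), and Pcdhb15 had 260 and 201 in KO and 522 and 375 in Cre (-0.96, adjusted p 0.18). Of 315 Zfp zinc finger genes 28 rose (8.89%) and 1 fell, with a median of 0.31 (scaled 0.02), and Zfp945 had 255 and 319 in KO and 14.5 and 59.9 in Cre (2.91). Of 94 cytochrome P450 genes 8 rose (8.51%) and 0 fell as deposited, and 2 were called higher and 3 lower after scaling to the same median (median 0.30, scaled 0.01), among them Cyp2b23 with 2256 and 1998 in KO and 1181 and 851 in Cre (1.07). Cyp4f14 had 414 and 619 in KO and 1000 and 957 in Cre (-0.92, adjusted p 0.064, and 0.011 after scaling). Of 47 defensin genes 2 rose (4.26%) and 0 fell (median 0.48, scaled 0.18), with Defb41 at 1.18. Scaled to the same median, 15 Zfp genes were called higher and 10 lower, and 1 defensin gene higher and 0 lower. No protocadherin gene was called either way under that scaling. In all 4 families the median stayed above 0 under this scaling.

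Keratins and keratin-associated proteins went the other way. Of 80 genes 3 rose (3.75%) and 2 fell (2.5%), beside 3.8% and 0.318% of all genes. Shares of 27.5% wholly above and 37.5% wholly below Cre compared with 40.1% and 12.9% of all genes. The median was -0.10 (scaled -0.40), and 1 gene was called higher and 8 lower after scaling to the same median. Krtap9-5 fell, with 275 and 121 in KO and 686 and 427 in Cre (-1.49), as did Krt90, with 171 and 204 in KO and 464 and 552 in Cre (-1.44). Krtap4-9 rose, with 302 and 295 in KO and 83 and 10 in Cre (2.66). Only 7 of 63 histone cluster genes had 1 kb of listed sequence. Of these 2 lay wholly above (28.6%) and 3 wholly below Cre (42.9%). The 1 that rose was H2bc1, a testis H2B gene (1.37, adjusted p 0.11 after scaling). Of 27 developmental transcription factor genes 0 rose and 0 fell by limma, and 6 lay wholly above and 6 wholly below Cre (22.2% each). Hoxb9 had 321 and 387 in KO and 253 and 45.8 in Cre. The log2 ratio at Hoxb13 was -1.40 (adjusted p 0.12). Scaled to the same median, 0 of these developmental genes were called higher and 2 lower.

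**Figure D5:**
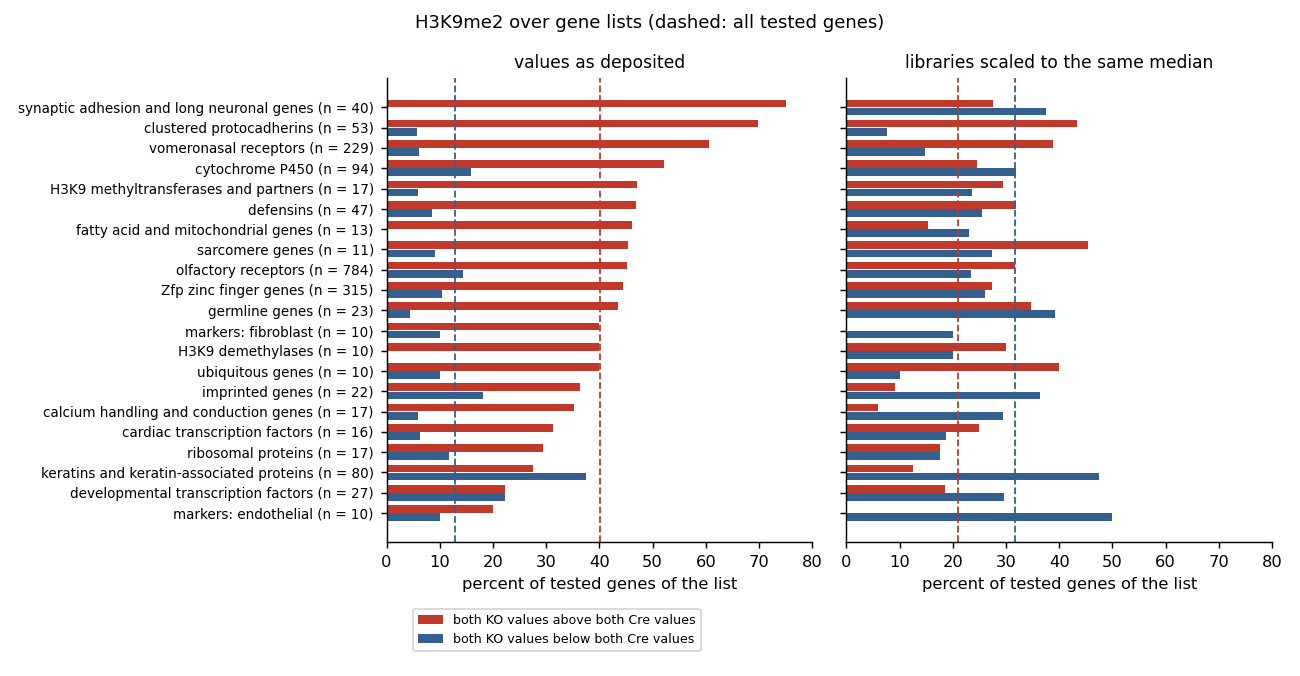
Percent of tested genes (x axis) with both KO values above both Cre values (red) or below both (blue) in each gene list with 10 or more tested genes, as deposited and with libraries scaled to the same median; dashed lines give all 16661 genes (40.1% and 12.9% as deposited, 21.0% and 31.8% scaled). Keratins lie below the dashed red line and above the dashed blue line in both panels, and vomeronasal receptors and protocadherins the reverse.

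Of 12 cardiomyocyte marker genes, 6 had no listed H3K9me2 region (Actc1, Mybpc3, Nkx2-5, Pln, Tnni3 and Tnnt2), while each of the 10 endothelial, 10 fibroblast, 10 immune and 10 smooth muscle and pericyte markers had some. Most genes had some, 19169 of all 20661. It was found at 19 of 28 genes used in all tissues, 49 of 76 ribosomal protein genes and 30 of 63 histone cluster genes. Lack of a listed region was thus not particular to cardiomyocyte markers. ChIP values give no expression, so the cell type itself was not checked. Over the 6 other cardiomyocyte markers the listed values summed to 11597 and 11835 in KO and 9990 and 6613 in Cre. Over endothelial markers they summed to 19391 and 21511 in KO and 20245 and 17331 in Cre, over fibroblast markers to 12869 and 12138 in KO and 12428 and 11128 in Cre, and over immune markers to 17483 and 18355 in KO and 20151 and 15483 in Cre. For smooth muscle and pericyte markers the sums were 9901 and 10203 in KO and 9258 and 8591 in Cre. KO lay above Cre for the cardiomyocyte and the smooth muscle markers, and the groups overlapped for the rest. Myh6 alone gave 4976 and 4852 of the cardiomyocyte sums in KO and 3657 and 1670 in Cre, so these sums lean on 1 gene. After scaling to the same median the cardiomyocyte sums overlapped (log2 ratio 0.22), and KO lay below Cre for the other 4 lists (-0.12 to -0.28). Genes wholly above and wholly below Cre numbered 3 and 0 of 5 tested cardiomyocyte, 2 and 1 of 10 endothelial and 4 and 1 of 10 fibroblast markers. For immune markers they numbered 1 and 2 of 7, and for smooth muscle and pericyte markers 4 and 2 of 9. Among all tested genes 40.1% lay wholly above and 12.9% wholly below Cre. Tie1, an endothelial receptor, fell, with 487 and 600 in KO and 1526 and 855 in Cre (-1.13). Cspg4 of pericytes had 283 and 275 in KO and 842 and 415 in Cre (-1.17, adjusted p 0.095, and 0.029 after scaling). Other markers had KO above Cre without passing, among them Vwf of endothelial cells (0.22), Postn of fibroblasts (0.52) and Myh11 of smooth muscle (0.45), and Col1a1 of fibroblasts had KO below Cre (-0.61).

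Among heart genes the neighbouring Myh6 and Myh7, the alpha and beta myosin heavy chains, rose over sequence that 1 listed region shares between them. Myh6 had 4976 and 4852 in KO and 3657 and 1670 in Cre (0.88, adjusted p 0.0054), and Myh7 had 2772 and 2703 in KO and 2037 and 930 in Cre (0.88, adjusted p 0.014). These values come from a single listed region (chr14:54965051-54971450), which did not pass when tested as a region (adjusted p 0.40). Both KO values of each gene were above both Cre values, but the Cre values themselves differed more than 2-fold. The limma standard error at Myh6 was 0.21, an estimate that also draws on the spread of other genes. Without the second Cre value the adjusted p was 0.25 for Myh6 and 0.37 for Myh7. Without the first KO value it was 0.069 and 0.11, and without the second KO value 0.098 and 0.16. Signal at Myh6 was 1002 and 977 per kb in KO and 736 and 336 per kb in Cre, far above the list median of 140. The alphaMHC promoter of the transgene is a copy of Myh6 sequence, and its part in this value was not tested.

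Of 11 sarcomere genes with enough listed sequence 2 rose (18.2%, beside 3.8% of all genes) and 0 fell. In 5 of them (45.5%, beside 40.1% of all genes) both KO values lay above both Cre values. The list had a median of 0.42 (scaled 0.13), and 1 gene was called higher and 0 lower after scaling to the same median. Myom1 of the M-band rose, with 1219 and 1387 in KO and 516 and 668 in Cre (1.14; adjusted p 0.054 after scaling). Ldb3 of the Z-disc had 691 and 701 in KO and 471 and 201 in Cre (1.05, adjusted p 0.057), Ttn, the gene of titin, 1076 and 1205 in KO and 857 and 655 in Cre (0.59, adjusted p 0.19), and Myom2 471 and 633 in KO and 694 and 760 in Cre (-0.40, adjusted p 0.46). Of 17 calcium handling and conduction genes 1 rose (5.88%) and 0 fell (median 0.21, scaled -0.08). This was Kcnip2, a potassium channel subunit, with 432 and 657 in KO and 228 and 99.0 in Cre (1.73). Scaled to the same median, 1 gene of this list was called higher and 1 lower.

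By limma 0 of 13 fatty acid and mitochondrial genes, 0 of 16 cardiac transcription factor genes, 0 of 17 genes of H3K9 methyltransferases and partners and 0 of 10 H3K9 demethylase genes rose or fell. Their medians were 0.36, 0.27, 0.15 and 0.32, and 6, 5, 8 and 4 genes lay wholly above Cre. Acadl, a fatty acid dehydrogenase, had 900 and 1115 in KO and 565 and 485 in Cre (0.94, adjusted p 0.063). Hopx had 866 and 948 in KO and 640 and 337 in Cre (0.89), Tbx20 177 and 162 in KO and 71 and 63 in Cre (1.33) and Hand1 502 and 566 in KO and 687 and 623 in Cre (-0.29). Of the G9a partners, Wiz had 352 and 347 in KO and 60 and 196 in Cre (1.44, adjusted p 0.079), and Cbx1, a heterochromatin protein gene, 480 and 606 in KO and 216 and 295 in Cre (1.08, adjusted p 0.099). Setdb2 had 498 and 450 in KO and 812 and 815 in Cre (-0.78, adjusted p 0.14, and 0.033 after scaling). The demethylase genes Kdm7a and Hr had log2 ratios of 0.59 and 1.27. As deposited these 4 lists gave no call, and after scaling to the same median 1 fatty acid gene and 1 methyltransferase list gene, Setdb2, were called lower. Their shares wholly above Cre as deposited ran from 31.3% to 47.1%, beside 40.1% of all genes.

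Of 8 fetal and hypertrophy genes with enough listed sequence 1 rose (12.5%, beside 3.8% of all genes), which was Myh7. Its values come from the single listed region shared with Myh6, which did not pass limma as a region. Nppa, the atrial natriuretic peptide gene, had 301 and 214 in KO and 324 and 515 in Cre (-0.70, adjusted p 0.34), and Acta1, skeletal actin, 218 and 370 in KO and 36.9 and 231 in Cre (1.13, overlapping, adjusted p 0.14). Nppb had 0.215 kb of listed sequence, with 34.4 and 37.1 in KO and 28.9 and 4.69 in Cre, and was not tested. Of 23 germline genes 2 rose (8.70%) and 0 fell (median 0.16, scaled -0.14). Among those that rose, Taf7l2 had 289 and 420 in KO and 125 and 28 in Cre (2.20). Dazl had 196 and 248 in KO and 326 and 374 in Cre (-0.65, adjusted p 0.40). Scaled to the same median, 1 germline gene was called higher and 0 lower. Of 22 imprinted genes 1 rose (4.55%) and 0 fell (median 0.16, scaled -0.14). This was Snrpn, with 30117 and 30162 in KO and 21884 and 20065 in Cre (0.52), and Magel2 nearby in the same imprinted domain had 462 and 551 in KO and 819 and 895 in Cre (-0.76, adjusted p 0.14, and 0.033 after scaling, when 1 imprinted gene was called higher and 2 lower). Of 10 genes used in all tissues with enough listed sequence, 1 rose (10%). This was Cltc of clathrin (1.23, adjusted p 0.11 after scaling). Of 17 ribosomal protein genes 0 passed. In this list 5 genes lay wholly above Cre (29.4%) and 2 wholly below (11.8%), beside 40.1% and 12.9% of all genes.

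Single regions were ranked by gap among those of 1 kb or more with a mean signal per kb at or above the list median. Those with the widest gaps were nearly empty in 1 genotype. In the authors' deposited list a region in Usp29, an imprinted gene (chr7:6846901-6847950), had values of 354 and 276 in KO and 6 and 5 in Cre. A region in Robo2, an axon guidance receptor gene (chr16:75324751-75325900), had 236 and 457 in KO and 17 and 11 in Cre in that list. Of these 10 higher regions 8 lay outside genes, 5 of them more than 150 kb from the nearest. Of the 10 lower regions, 3 lay on chromosome 17 between 40 and 42 Mb. In the authors' deposited list chr17:40051201-40052300 was listed at 0 and 0 in KO and had 171 and 451 in Cre, chr17:40144051-40145200 had 2 and 0 in KO and 445 and 228 in Cre, and chr17:41036151-41037800 had 74 and 15 in KO and 455 and 501 in Cre. St6galnac3, a sialyltransferase gene (chr3:153631451-153632450), had 24 and 19 in KO and 254 and 271 in Cre in that list. The log2 ratios were 5.60 at Usp29 (standard error 0.98), 4.53 at Robo2 and -3.55 at St6galnac3, each with an adjusted p of 0.40.

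G9a was the enzyme targeted, so H3K9me2 regions were also set against the G9a list, where a G9a region of a single direction covered at least 50% of the H3K9me2 region. Of 137132 H3K9me2 regions with G9a lower in KO, 51.7% had H3K9me2 higher and 48.3% lower. Of 74280 regions with G9a higher in KO, 75.1% had H3K9me2 higher and 24.9% lower. Of 403049 regions with no G9a region, 60.4% had H3K9me2 higher, beside 60.3% of the whole list. H3K9me2 was thus lower most often where G9a was lower, yet rather more than 50% of these regions were still higher. Seen from the H3K9me2 list, 23.5% of its lower regions and 16.5% of its higher regions had G9a lower. The lists come from different libraries of the same genotypes, and both hold only regions listed for differing.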

How the data were processed

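ChIP-seq of H3K9me2 was analysed in 2 KO and 2 Cre libraries. The reads were aligned with BWA 0.7.10-r789 to mm10 (GRCm38) and handled with SAMtools 1.1, per the submitters' processing notes. The deposited list of the authors gives each region's signal in 4 values, while for the region caller, the normalization and any use of input the labels give no statement. The values are not treated as counts, and the read depth is unknown. Their order, 2 Cre and then 2 KO, carries no replicate number. Log2 ratios use the group means with 1 added. limma 3.58.1 in R 4.3.3 was fitted to log2(value + 1) with an intensity trend, over all regions, windows or genes, with Benjamini-Hochberg adjustment at 0.05. The fit was run on simulated data that varied less between libraries than the listed regions do. Paired values of the listed regions differed by a median of 0.59 in KO and 0.90 in Cre (log2). That run therefore does not show how well the fit holds for these regions. Regions were listed for differing between genotypes, so p-values are not those of unselected sequence, and sequence outside the list has no value. A region counts towards a gene or window by the share of it that overlaps. Genes needed 1 kb of listed sequence within the span and 2 kb on each side (16661 of 20661 protein-coding genes), and windows of 1 Mb needed 10 kb. Promoters came from a RefSeq table that matched 16456 genes.

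Named genes were the 15 in each direction with the widest gap between groups and 3 kb or more listed, up to 3 highest and 3 lowest non-overlapping genes of each list, and a fixed set of heart and G9a genes. By gap, 10 regions and 5 windows in each direction were named. The regions were of 1 kb or more with a mean signal per kb at or above the list median. The members and lists were chosen with earlier results of these data known. Some genes that this rule names are not reported here.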

Additional observations from a re-analysis of the deposited data

How the results depend on the processing

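No paired analysis was possible because the 4 values of a region carry no replicate number. The counts of calls depended on the setting. With libraries scaled to the same median, 339 windows were higher and 600 lower, and 208 genes higher and 679 lower; scaled to the same total, 419 and 463 windows and 243 and 537 genes. Windows of 200 kb gave 3112 and 19. Leaving out 1 library gave 10 to 1027 higher and 0 to 1 lower windows, and 13 to 1846 higher and 3 to 109 lower genes. Gene spans with 10 kb on each side gave 1513 and 87 genes, gene ends alone 1 and 0, and genes with any listed sequence 36 and 0. Without chromosomes 4 and 17, an alternative chosen after seeing the data, 0 windows were lower.

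Some log2 ratios changed sign. Ehmt1 was at -0.13 after scaling to the same median, -0.11 after scaling to the same total and between -0.032 and 0.36 with 1 library left out, below 0 without the second Cre value. Ehmt2 was at 0.059 with 10 kb on each side, 1.47 over gene ends and between -0.63 and 0.71 with 1 library left out, above 0 without the second KO value (0.15) and the first Cre value. Mef2c was between -0.26 and 0.18 with 1 library left out, above 0 without the first KO value (0.085) and the first Cre value. With 10 kb on each side Magel2 was at 0.046, Pcdhb15 at 0.028 and Spag11b at 0.054, and over gene ends Tex33 was at 0.64. The causes were not tested. With 2 libraries a group, the exact test cannot give a p below 0.3333.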
